A study of Mus musculus with 10 samples.

Results

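A list of 36 genes of glycolysis and the response to low oxygen was followed in whole kidneys of mice: 18 glycolytic enzymes, lactate dehydrogenases included, 4 enzymes of pyruvate and D-lactate use, 6 HIF subunits and regulators, and 8 other HIF targets. A gene was taken up through probe sets to which the platform annotation gives its symbol alone, and its value is that of the probe set with the highest mean signal. On this rule 34 of the 36 genes had a probe set, out of 18194 genes named on the array. Gpi1 and Eno1 had none, and Gapdh was covered by array control probe sets alone, which were not tested. Of the remaining 33 genes, 31 were bright enough to be tested, among 12196 genes tested in all, and Eno2 and Ankrd37 lay below that level.

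Glycolysis and the response to low oxygen share much of their wiring. Glycolysis splits glucose into pyruvate, and lactate dehydrogenase interconverts pyruvate and lactate. The hypoxia-inducible factors (HIF) are pairs of an oxygen-labile alpha subunit, Hif1a or Epas1, with the stable partner Arnt. When oxygen is plentiful, prolyl hydroxylases such as Egln1 and Egln3 mark the alpha subunit, and the Vhl protein then directs its destruction. When oxygen is low, the pair binds DNA and raises genes of glycolysis, blood vessel growth and collagen folding. In the kidney the proximal tubule burns fatty acids and makes glucose, while the later segments and the medulla rely more on glycolysis.

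The 10 kidneys came from male C57BL/6 mice aged 30 months, 5 fed a control diet and 5 under long-term calorie restriction, 1 mouse and 1 Affymetrix array each. How severe the restriction was and how long it lasted the labels do not state. Values are linear MAS5 signal intensities, scaled array by array. Differences are log2 values of calorie restriction over control, given ± the standard error of the limma fit (n = 5 per group). In whole tissue, fewer cells of a type and less RNA per cell cannot be told apart.

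The arrays differed between the diets in a measure of RNA quality. Gapdh and Actb each have control probe sets at both transcript ends, and their 3'/5' log2 ratio goes up as RNA breaks or is copied short. It averaged 1.05 ± 0.26 on the control arrays and 1.67 ± 0.46 under calorie restriction (SD, n = 5; exact permutation test, 2-sided, p = 0.0476). With 1 array left out, p in the same test ranged from 0.0397 to 0.0794. Every control lay between 0.76 and 1.39. The calorie-restricted arrays 4 and 5, at 1.24 and 1.16, fell inside that range, and arrays 1 to 3, at 2.21, 2.01 and 1.75, above it. Signal level also mattered. Among all tested genes the median difference was -0.01, but among the 464 genes with a mean log2 signal of 13 or more it was 0.21, and 83.6% of these lay above 0. After quantile normalization, which gives every array the same distribution of signals, the median of these 464 genes was 0.01. For the leading members the difference is therefore also given after quantile normalization, with that ratio as a covariate, and in replicates 4 and 5 of each group alone.

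Phosphoglycerate kinase Pgk1 makes the first ATP of glycolysis, and lactate dehydrogenase B, Ldhb, favours turning lactate back into pyruvate. With the signals as deposited, both were higher in calorie-restricted kidney. They were the only tested members that passed an adjusted p of 0.05 in limma, adjusted by Benjamini-Hochberg over the 22519 probe sets in the fit, of which 6.09% passed. That is 2 of 31 members, both higher, where 6.10% of all tested genes passed in either direction, 3.08% as higher and 3.02% as lower. The share of members is thus near that of all genes. After quantile normalization Pgk1 differed by 0.26 and Ldhb by -0.01, and neither passed. Hexokinase 1, liver phosphofructokinase, the kinase Pdk2 and the hydroxylase Egln1 had higher means without passing, and no member passed as lower.

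Pgk1 had signals of 18376, 20958, 20727, 16869 and 19006 in control replicates 1 to 5 and of 29350.5, 30479, 27953, 25376 and 25739.5 in calorie-restricted replicates 1 to 5. All 5 calorie-restricted values lay above all 5 control values, a gap that 3.80% of tested genes showed in this direction. The means were 19187 ± 1701 and 27779.6 ± 2221 (SD), a log2 difference of 0.53 ± 0.081 or 1.45-fold (95% interval 1.29 to 1.63, adjusted p = 0.0114). The difference was of like size in the fit limited to replicates 4 and 5, 0.51, and in the fit with the 3'/5' covariate, 0.48, though neither passed (adjusted p = 0.0738 and 0.0977). After quantile normalization it was 0.26 (adjusted p = 0.0501). The other 2 Pgk1 probe sets were higher by 0.20 each and did not pass. After quantile normalization these 2 differed by 0.03 and 0.22, and in replicates 4 and 5 alone by 0.48 and 0.04, in the same order. The brightest probe set is of the x_at type, which can also bind related transcripts, so its share from Pgk1 itself is uncertain. The same limit holds for Ldhb, Aldoa, Ndrg1 and Adm, whose brightest probe sets are also of that type.

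Ldhb had signals of 20891, 20865, 22894, 21056 and 23074 in the controls and of 28369, 29657, 23841, 25738.5 and 24238 in calorie restriction. The 2 diets did not overlap, a gap that 3.80% of tested genes showed in this direction. Replicates 1 and 2 were the highest of the calorie-restricted mice. The log2 difference was 0.27 ± 0.077, or 1.21-fold (95% interval 1.08 to 1.35), at the edge of the threshold (adjusted p = 0.04995). It was -0.01 after quantile normalization, 0.16 with the ratio as a covariate and 0.18 in replicates 4 and 5 alone. Leaving out any 1 array ended the call in 9 of 10 cases, all but calorie-restricted replicate 5, with differences from 0.23 to 0.31. All 4 Ldhb probe sets were higher and none overlapped between the diets. They read 1 gene on the same arrays, so they are not separate evidence. All 4 had mean log2 signals above 13, where the median difference of all tested genes was 0.21 before quantile normalization. The dimmest of them had the largest difference of the 4, 0.44 ± 0.093 (adjusted p = 0.0217). After quantile normalization the dimmest differed by 0.21 and did not pass (adjusted p = 0.0767). The 2 probe sets between it and the brightest then differed by -0.02 and 0.07.

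**Figure D1:**
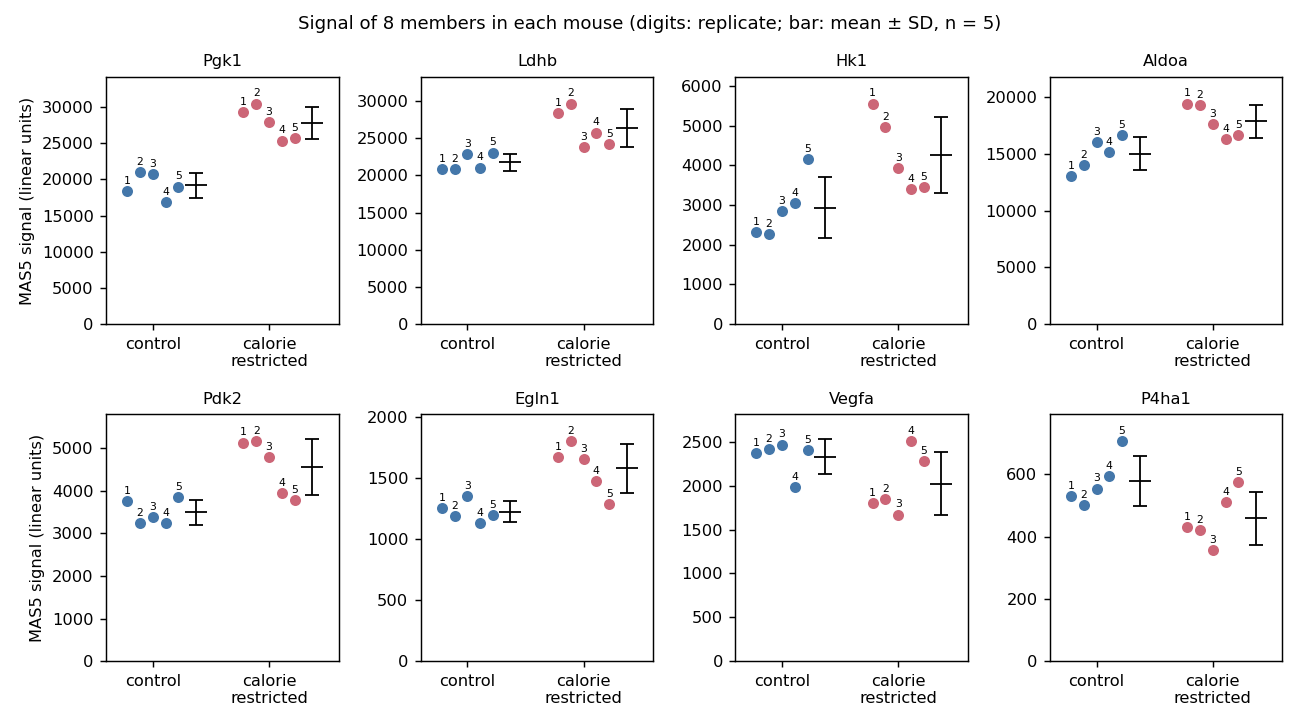
MAS5 signal (linear units, axis from 0) of the brightest probe set of 8 members in each of 5 control (blue) and 5 calorie-restricted (red) mice; digits give the replicate, and the bar beside each group gives mean ± SD. Pgk1 and Ldhb do not overlap between the diets, while in Hk1 calorie-restricted replicates 4 and 5 lie within the control range.

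The regulatory sequence of these 2 genes is shown beside that of Ldha, the lactate dehydrogenase subunit that favours lactate formation, and of P4ha1, the other HIF target with the smallest p, because HIF binds a short core in promoters of its targets. Each stretch covers 250 bases before to 50 bases after a transcript start, from RefSeq on GRCm38.p6, 5' to 3' on the gene's strand. Capitals mark the core of the hypoxia response element, ACGTG or GCGTG, on either strand, and a run of CACGTG holds 2 overlapping matches. The Pgk1 stretch lies at chrX:106186850-106187149 (+), that of Ldhb at chr6:142507908-142508207 (-), that of Ldha at chr7:46845554-46845853 (+) and that of P4ha1 at chr10:59323046-59323345 (+).
Pgk1: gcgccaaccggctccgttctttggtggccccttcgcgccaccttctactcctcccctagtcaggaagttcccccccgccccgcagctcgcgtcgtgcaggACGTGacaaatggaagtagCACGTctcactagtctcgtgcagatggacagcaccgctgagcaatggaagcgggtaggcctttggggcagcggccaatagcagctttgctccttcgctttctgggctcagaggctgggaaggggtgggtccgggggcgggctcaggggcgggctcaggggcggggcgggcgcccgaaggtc
Ldhb: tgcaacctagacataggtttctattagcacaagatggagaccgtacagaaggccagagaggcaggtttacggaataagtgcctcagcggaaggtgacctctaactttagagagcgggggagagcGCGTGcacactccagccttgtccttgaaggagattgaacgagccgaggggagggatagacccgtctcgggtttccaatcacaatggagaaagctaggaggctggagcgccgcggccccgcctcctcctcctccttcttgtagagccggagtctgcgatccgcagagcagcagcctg
Ldha: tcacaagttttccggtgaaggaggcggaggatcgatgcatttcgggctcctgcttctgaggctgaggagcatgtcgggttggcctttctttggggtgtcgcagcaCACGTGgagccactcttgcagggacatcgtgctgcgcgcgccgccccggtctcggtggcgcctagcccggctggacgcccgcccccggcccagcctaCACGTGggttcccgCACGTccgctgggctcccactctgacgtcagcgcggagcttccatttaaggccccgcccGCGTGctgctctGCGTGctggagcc
P4ha1: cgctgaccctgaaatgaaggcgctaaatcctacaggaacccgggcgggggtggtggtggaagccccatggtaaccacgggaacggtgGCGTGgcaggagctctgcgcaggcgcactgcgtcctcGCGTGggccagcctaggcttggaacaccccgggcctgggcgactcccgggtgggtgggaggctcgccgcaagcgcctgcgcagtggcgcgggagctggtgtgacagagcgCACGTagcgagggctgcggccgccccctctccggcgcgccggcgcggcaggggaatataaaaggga
The printed stretches hold 2 matches for Pgk1, 1 for Ldhb, 7 for Ldha and 3 for P4ha1. RefSeq lists a second Ldha promoter, at chr7:46846832-46847131 (+), with 2 matches, which is not printed. RefSeq gave 48 such promoters for 34 of the members, none of them for Epas1 or Ndrg1, and 37 of the 48 (77.1%) held at least 1 match, against 43.8% of all 32851 promoters. By role the share was 75.9% of 29 promoters of glycolytic enzymes and 87.5% of 8 promoters of the other HIF targets. CACGTG, which is also the E-box bound by clock factors, stood in 12.5% of the members' promoters and 7.15% of all. A match is a description of these letters and does not show binding, and the list was drawn up around this pathway.

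Among the 14 tested glycolytic enzymes, 11 had a difference above 0 and 3 below, with a median of 0.19, against 49.2% above 0 and a median of -0.01 over all tested genes. At an unadjusted p under 0.05 in limma there were 6 of 14 higher and 0 lower, against 12.6% and 13.8% of all genes. The 6 were Hk1, Pfkl, and the bright enzymes Aldoa, Tpi1, Pgk1 and Ldhb. The shares of all genes are not matched for signal level, and they refer to the deposited scaling. The 5 enzymes with a mean log2 signal of 13 or more, Aldoa, Ldha, Ldhb, Pgk1 and Tpi1, all lay above 0 with a median of 0.25, close to the 0.21 of all genes that bright. After quantile normalization their median was 0.05, with 3 of 5 above 0. The 9 dimmer enzymes had a median of 0.16, and 0.15 after quantile normalization, with 6 of 9 above 0 under both. The median of the 14 was 0.05 after quantile normalization, 0.10 with the covariate and 0.07 in replicates 4 and 5 alone.

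**Figure D2:**
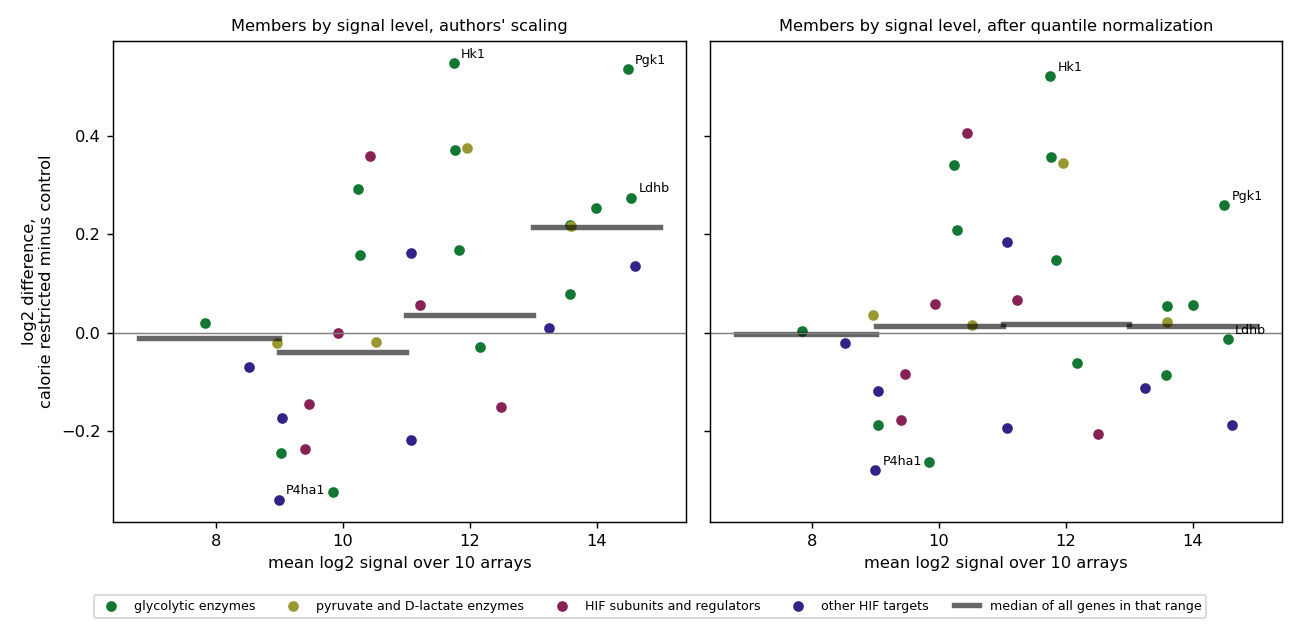
Log2 difference of each tested member (dots, coloured by role) against its mean log2 signal over the 10 arrays, with the deposited scaling and after quantile normalization; grey bars give the median of all tested genes in 4 ranges of signal. At log2 13 and above the grey bar stands at 0.21 before and at 0.01 after quantile normalization, and Pgk1 lies above it in both panels.

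Of the enzymes of the first steps, hexokinase 1 traps glucose in the cell. Hk1 had signals of 2319, 2269, 2849.8, 3046 and 4159 in the controls and of 5552, 4954, 3924, 3391 and 3456 in calorie restriction. Only calorie-restricted replicates 1 and 2 exceeded all controls, and these 2 arrays also had the highest 3' to 5' ratios. The difference was 0.55 ± 0.18 (adjusted p = 0.0738), 0.52 after quantile normalization, 0.08 with the ratio as a covariate and -0.06 in replicates 4 and 5 alone. It passed without control replicate 5 (0.68), calorie-restricted replicate 4 (0.62) or 5 (0.61). The other Hk1 probe set, which was dimmer, differed by -0.08 ± 0.22 (adjusted p = 0.839 in limma). The inducible hexokinase Hk2 differed by 0.02 ± 0.25.

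Phosphofructokinase commits sugar to glycolysis, and none of its 3 subunits passed. The liver form Pfkl differed by 0.37 ± 0.13 (adjusted p = 0.101), with values of 0.03 in replicates 4 and 5 alone and 0.11 with the covariate. The muscle form Pfkm differed by 0.16 ± 0.11 and the platelet form Pfkp by -0.32 ± 0.18, and whether these forms differ from each other was not tested. Aldolase A, Aldoa, which splits the sugar, had signals of 13058.5, 14029, 16056, 15173 and 16646 in the controls and of 19422, 19270.0, 17611, 16287 and 16649.6 in calorie restriction. All but calorie-restricted replicate 4 lay above the controls, replicate 5 only barely. The difference was 0.25 ± 0.085 (adjusted p = 0.0844), or 0.06 after quantile normalization. All 5 Aldoa probe sets were higher except a dimmer one, which differed by -0.08 ± 0.079. The brain form Aldoc differed by 0.29 ± 0.15, and triose phosphate isomerase, Tpi1, by 0.22 ± 0.078.

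None of the other tested enzymes of the lower part of the pathway passed. Phosphoglycerate mutase Pgam1 differed by -0.03 ± 0.091 and pyruvate kinase Pkm by 0.17 ± 0.12. The Pkm value turned to -0.02 with the covariate and to -0.12 in replicates 4 and 5 alone, and that of Pgam1 to 0.10 and 0.18. The muscle enolase Eno3 differed by -0.24 ± 0.17, and by 0.10 in replicates 4 and 5 alone. Ldha, a textbook HIF target, differed by 0.08 ± 0.078, with a 95% interval of -0.09 to 0.25, or 0.94-fold to 1.19-fold. It was -0.09 after quantile normalization, 0.23 with the covariate and 0.29 in replicates 4 and 5 alone, so its sign depended on the scaling. Neuronal enolase Eno2, too dim to be tested, ranged from 78.2 to 180.1 in the controls and from 52.0 to 111 in calorie restriction.

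Gapdh, the enzyme before Pgk1, was read by 3 control probe sets along its transcript, and they gave 3 different pictures. The 3' probe set had signals of 19114, 19477.5, 22515, 21515 and 22095 in the controls and of 28906, 31714.5, 27020.2, 27815 and 25736 in calorie restriction, with no overlap and a difference of 0.43 in the means of log2 signal. The middle one differed by 0.11 and the 5' one by -0.21, both with overlap. In the 5' probe set calorie-restricted replicates 1, 2 and 3 read 11093, 13457 and 12437, below all controls, and replicates 4 and 5 read 18983 and 19266, within the control range of 14327 to 20362. The middle probe set was highest in calorie-restricted replicates 4 and 5, at 22808 and 21548. These probe sets are array controls, so they were described and not tested.

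**Figure D3:**
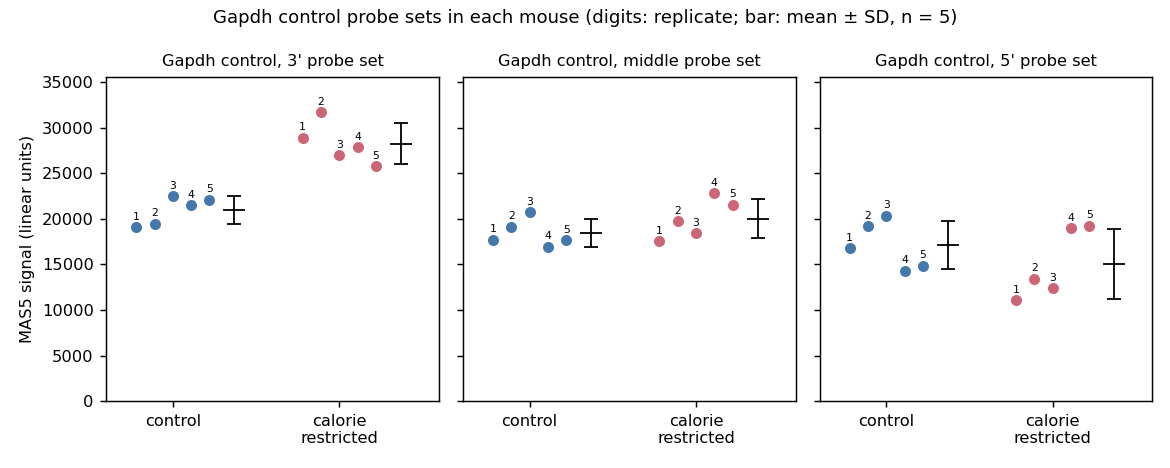
MAS5 signal (linear units, axis from 0) of the 3 Gapdh control probe sets, at the 3' end, the middle and the 5' end of the transcript, in each mouse; digits give the replicate and bars mean ± SD, n = 5. The diets separate at the 3' end and overlap at the middle and the 5' end.

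Pyruvate dehydrogenase kinases switch off the entry of pyruvate into the citrate cycle. Of the 4 enzymes of pyruvate and D-lactate use none passed in limma, and 1 had an unadjusted p under 0.05. That was Pdk2, with signals of 3765, 3245, 3386, 3234 and 3851 in the controls and of 5131, 5168, 4786, 3941 and 3772 in calorie restriction. Replicates 1 to 4 lay above all controls and replicate 5 among them. The difference was 0.37 ± 0.11 (adjusted p = 0.0549), 0.34 after quantile normalization, 0.15 with the covariate and 0.13 in replicates 4 and 5 alone. It passed without calorie-restricted replicate 4 (0.42) or 5 (0.44).

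Pdk1, the kinase that HIF induces, differed by -0.02 ± 0.17, with a 95% interval of -0.38 to 0.35, and Pdk3 by -0.02 ± 0.18. In replicates 4 and 5 alone these were -0.43 and 0.35. Ldhd, which oxidizes D-lactate in mitochondria, differed by 0.22 ± 0.14 (adjusted p = 0.349). Its controls read 17306, 9805, 10619, 9778 and 11341 and its calorie-restricted mice 11857, 15411, 14167, 13617 and 12002. Without control replicate 1, the highest of all 10, the difference was 0.36 and passed. With all 10 arrays it was 0.02 after quantile normalization (adjusted p = 0.947) and 0.24 with the covariate. The other Ldhd probe set differed by -0.18 ± 0.21 in all mice and by 0.42 in replicates 4 and 5 alone.

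None of the 6 HIF subunits and regulators passed in limma, and 1 had an unadjusted p under 0.05; their median was -0.07. Egln1, the main oxygen sensor among the prolyl hydroxylases, had signals of 1255, 1186, 1352, 1132 and 1196 in the controls and of 1671, 1803, 1653, 1476 and 1286 in calorie restriction. All but replicate 5 exceeded the controls. The difference was 0.36 ± 0.11 (adjusted p = 0.0625), 0.41 after quantile normalization, 0.22 with the covariate and 0.24 in replicates 4 and 5 alone, and it passed without calorie-restricted replicate 5 (0.43). The other Egln1 probe set differed by 0.03. Egln3, a hydroxylase that is itself a HIF target, differed by 0.00 ± 0.12 in its brightest probe set and by 0.52 ± 0.19 in the other (adjusted p = 0.101).

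The alpha subunit Hif1a differed by 0.06 ± 0.15, with a 95% interval of -0.26 to 0.38 and a value of -0.24 in replicates 4 and 5 alone, and Epas1, the form found in endothelium and interstitial cells of the kidney, by -0.15 ± 0.096. Vhl differed by -0.15 ± 0.10. Arnt, the shared partner, had signals of 650.4, 771, 705, 856 and 722 in the controls and of 774, 622, 714, 509 and 549 in calorie restriction, a difference of -0.24 ± 0.13 (adjusted p = 0.281) with overlap. A dimmer Arnt probe set, singled out after its values were seen, read 364, 548, 492, 557 and 481 against 390.5, 268, 285, 278 and 235. It was lower by limma (-0.75 ± 0.16, adjusted p = 0.0233), with 4 of 5 calorie-restricted values below all controls. Its difference was -0.70 after quantile normalization and -1.02 in replicates 4 and 5 alone, where the brightest probe set differed by -0.57. The third Arnt probe set differed by -0.41 in all mice and by 0.39 in replicates 4 and 5 alone.

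**Figure D4:**
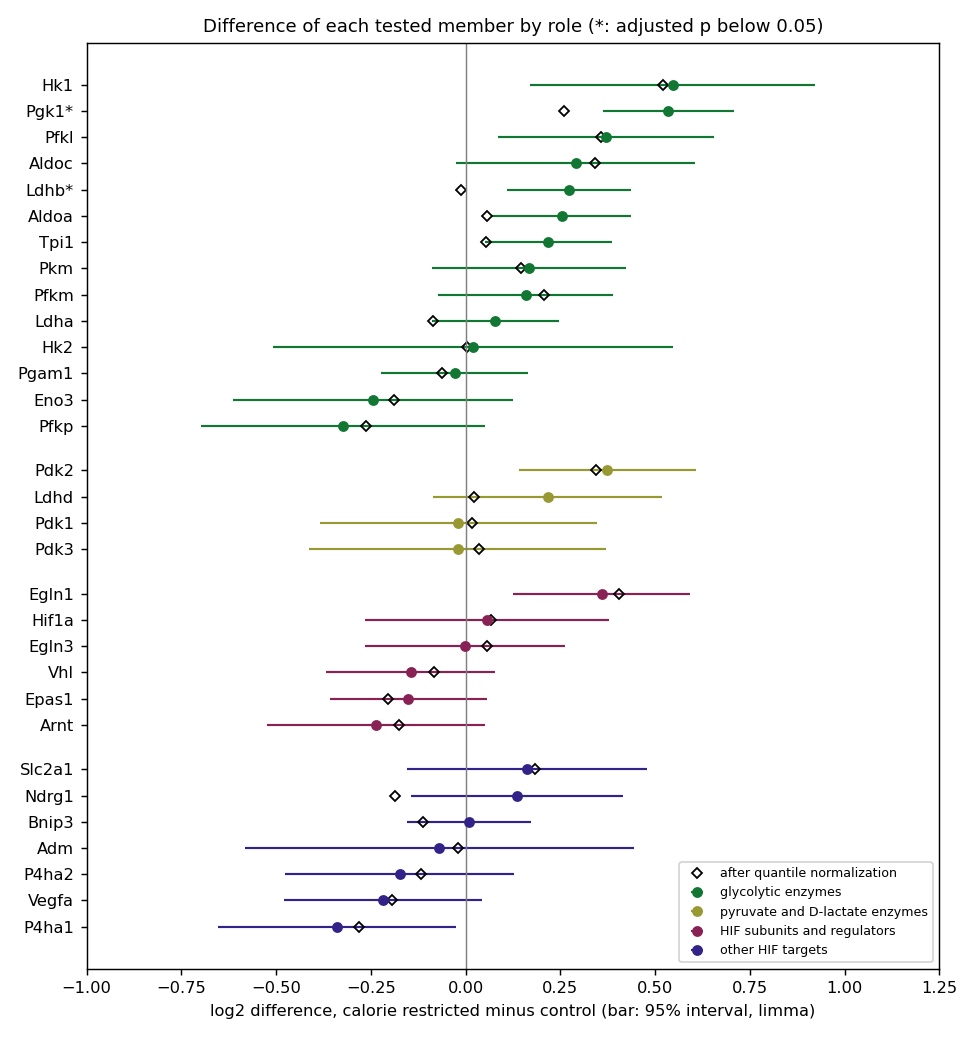
Log2 difference, calorie restricted minus control, of the 31 tested members by role (dots, with 95% intervals from limma, deposited scaling), and the same difference after quantile normalization (open diamonds); a star marks adjusted p below 0.05. Pgk1 and Ldhb carry the stars, and the diamonds of the brightest genes, such as Ldhb at -0.01, lie left of their dots.

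Of the 7 other HIF targets tested, 3 lay above 0 and 4 below, with a median of -0.07, none passed in limma, and 1 had an unadjusted p under 0.05. Their median was -0.12 after quantile normalization, -0.15 with the covariate and -0.18 in replicates 4 and 5 alone. The difference between these 2 role groups was not tested. Per mouse, the mean deviation of the glycolytic enzymes from their level over all arrays was 0.02 to 0.15 in calorie restriction and -0.22 to 0.05 in control. For the other HIF targets it was -0.12 to 0.05 in calorie restriction and -0.14 to 0.15 in control. The ranges of the diets overlapped in both groups.

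**Figure D5:**
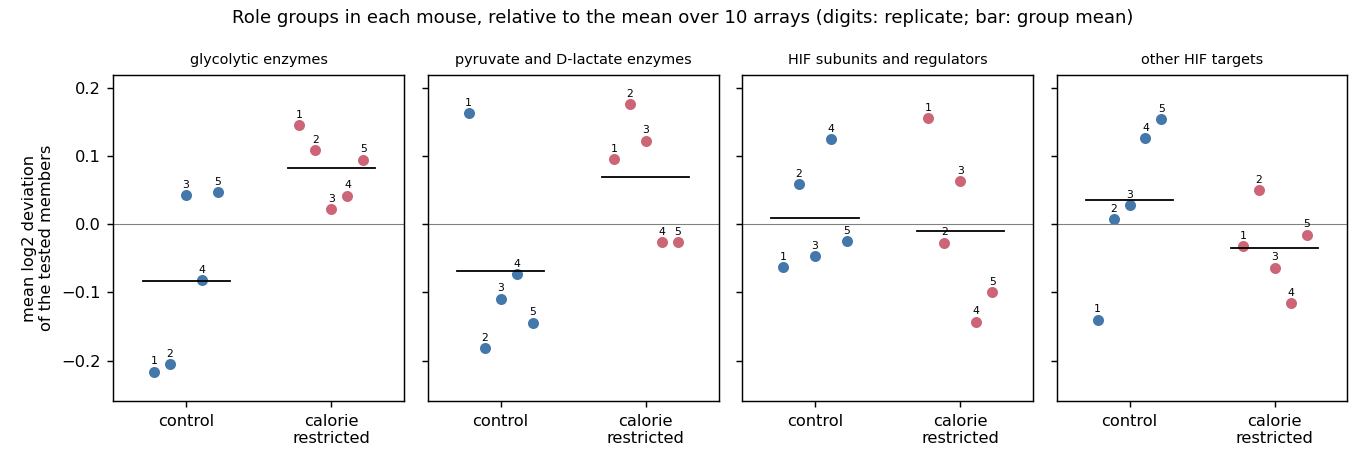
Mean log2 deviation of the tested members of each role from their mean over the 10 arrays, per mouse (digits: replicate; lines: group means). Control replicates 1 and 2 are the lowest for glycolytic enzymes, at -0.22 and -0.21, and the diets overlap in every role.

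P4ha1, the catalytic subunit of the enzyme that hydroxylates collagen, had signals of 529.9, 500.5, 554, 594 and 707 in the controls and of 431, 421, 356, 511 and 575 in calorie restriction. Replicates 1, 2 and 3 lay below all controls and replicates 4 and 5 among them. The difference was -0.34 ± 0.15 (adjusted p = 0.160), and that of its sister subunit P4ha2 was -0.17 ± 0.14. Vegfa, the growth factor of blood vessels, read 2372, 2417, 2467, 1986 and 2406 in the controls and 1800.2, 1844, 1669, 2508 and 2283 in calorie restriction. Its difference was -0.22 ± 0.12 (adjusted p = 0.272), and 0.13 in replicates 4 and 5 alone, so its sign turned with the choice of arrays.

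The glucose transporter Slc2a1 differed by 0.16 ± 0.15, but by -0.14 with the covariate and -0.18 in replicates 4 and 5 alone, and the vasodilator peptide Adm by -0.07 ± 0.24. Bnip3, which drives the removal of mitochondria, differed by 0.01 ± 0.076, with a 95% interval of -0.15 to 0.17, and by -0.11 after quantile normalization. Ankrd37, too dim to be tested, read 99.6, 149, 125, 188 and 127 in the controls and 92.8, 65.3, 83.7, 95.7 and 99.2 in calorie restriction. All calorie-restricted values lay below all controls. Of the tested genes, 3.69% showed such a gap downwards, but that share leaves out genes as dim as this one. In the fit of all probe sets without a filter its difference was -0.64 ± 0.25 (adjusted p = 0.200).

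Ndrg1 is a stress-responsive gene with 5 tested probe sets. The brightest differed by 0.14 ± 0.13 (adjusted p = 0.540), with calorie-restricted replicates 1 and 2 at 32809 and 33682 and the other 3 between 19409 and 23937. A dimmer one, singled out after its values were seen, read 13488.5, 16290.3, 15481, 10947.5 and 14821 in the controls and 8895, 10069, 7199, 11776 and 9586 in calorie restriction. It was lower by limma (-0.58 ± 0.13, adjusted p = 0.0265), by -0.75 after quantile normalization and by -0.26 in replicates 4 and 5 alone. The brightest itself differed by -0.19 after quantile normalization, -0.15 with the covariate and -0.13 in replicates 4 and 5 alone, and under each of these all 5 Ndrg1 probe sets lay below 0. After quantile normalization another of them, at -0.28, also passed as lower (adjusted p = 0.0416). Over all members, 21 of 31 further probe sets (67.7%) moved in the direction of the brightest one, against 59% over all genes.

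Other genes of the 2 pathways, taken from lists of 28 and 40 genes, showed changes in both directions. Of 23 tested genes of glycolysis, gluconeogenesis and pyruvate entry, 2 rose and 0 fell, where 3.08% of all tested genes were higher and 3.02% lower. They were Fbp1, which runs the committed step of gluconeogenesis in reverse of phosphofructokinase (0.37 ± 0.066, adjusted p = 0.0167), and pyruvate carboxylase, Pcx (0.40 ± 0.11, adjusted p = 0.0450). After quantile normalization these were 0.02 and 0.26 and neither passed, and the Pcx value was 0.16 in replicates 4 and 5 alone. The median of the 23 was -0.01.

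Of 35 tested further HIF pathway genes, 3 rose and 3 fell, against the same 3.08% and 3.02% of all tested genes, with a median of -0.06. The adenylate kinase Ak4 rose by 0.94 ± 0.098 (adjusted p = 0.00337) and carbonic anhydrase Car9, a marker of hypoxia, by 0.94 ± 0.21 (adjusted p = 0.0256). The Car9 signals were 799.8, 418, 315, 346 and 484 in the controls and 918, 795, 753, 821 and 1018 in calorie restriction, where replicates 2 and 3 lay below control replicate 1. The vasoconstrictor endothelin 1, Edn1, fell by 0.85 on the log2 scale (adjusted p = 0.0233), and the collagen lysyl hydroxylase Plod2 by 0.55 (adjusted p = 0.0265). All 4 still passed after quantile normalization (0.81, 0.99, -0.84 and -0.50). The other 2 were the histone demethylase Kdm4b (0.65 ± 0.18, adjusted p = 0.0490) and the cyclin Ccng2 (-0.43 ± 0.11, adjusted p = 0.0412). Neither passed after quantile normalization (adjusted p = 0.0566 and 0.0635). For none of these HIF pathway genes are values with the 3'/5' covariate or in replicates 4 and 5 alone given here. Over all probe sets 9 passed with the covariate and 198 in replicates 4 and 5 alone.

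Markers of some kidney cell types also differed between the diets, and their part in the results was not tested. Over all tested genes, 3.08% passed as higher and 3.02% as lower. Of 15 tested proximal tubule markers 9 were higher and 0 lower, and their summed signal was 189190.1 to 222726 in control and 260958 to 311353 in calorie-restricted kidney. After quantile normalization 3 of the 15 were higher, and their median went from 0.38 to 0.10. That median was 0.41 with the 3'/5' covariate and 0.45 in replicates 4 and 5 alone, both with the deposited scaling. Of 9 tested thick limb and distal tubule markers 0 passed (sum 66967 to 84201 against 80518 to 93739). Their median was 0.07, and -0.06 after quantile normalization, with 1 of 9 then above 0. Of 9 collecting duct markers 1, Slc4a1, was higher. Endothelial markers had 0 of 10 past the threshold with a median of -0.24. Macrophage markers were lower in 4 of 10 cases (sum 19124 to 35172 against 14903 to 22941), those of fibroblasts and smooth muscle in 2 of 9 and those of adipocytes in 2 of 7. Of 10 skeletal muscle markers 8 lay below the signal filter. Of 8 red cell markers 2 were tested, both above 0, and 1 of them, Slc4a1, passed. Collecting duct cells also make Slc4a1, and this is the same call as in that list.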

How the data were processed

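Total RNA from 10 kidneys, 1 mouse per array, was hybridised to Affymetrix mouse arrays. The deposited values are signal intensities on a linear scale, which the authors made with MAS5; the submitters' processing notes also name Affymetrix Expression Console. Software versions are not given in the labels. Every array had the same trimmed mean of 500.0, so the arrays were compared as deposited. From the deposited intensities log2 values were computed, with a floor of 1. Array controls were dropped, and 22519 probe sets with a mean log2 signal at or above the median of 6.81 entered the fit (R 4.3.3, limma 3.58.1: lmFit, then eBayes with trend; Benjamini-Hochberg over these probe sets, threshold 0.05). The script was tested on simulated data. Of the probe sets, 34958 had 1 gene symbol in the platform annotation, 932 several and 9211 none. The labels call the replicates biological. The number of arrays limits the precision.

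The members and lists were chosen with earlier results of these data known. All members are named, with signals per mouse for those past the threshold and the next 2 by p in each role. Of each pathway list, up to 4 genes that passed are named, by smallest p. Kdm4b and Ccng2 lie outside this rule and were named after their values were seen, as were the Arnt and Ndrg1 probe sets marked so. Cell type markers were taken from lists. Alternatives covered the filter, scaling, floor, the eBayes options, array weights, the replicate number as a block, the 3'/5' covariate, and arrays left out. Promoters came from RefSeq on GRCm38.p6.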

Additional observations from a re-analysis of the deposited data

Results flagged for a closer look

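In 5 of the 62 groups of 5 mice examined, 1 mouse stood apart from the other 4 by Dixon's test at 95%; chance gives about 1 in 20. Pfkp had its lowest calorie-restricted signal in replicate 3, at 643 against 843 to 906 in the others. Pkm was lowest in calorie-restricted replicate 4, at 3251 against 3913 to 4122. Ldhd was highest in control replicate 1, at 17306 against 9778 to 11341. Egln3 was highest in calorie-restricted replicate 1, at 1207 against 896 to 970.3. Vegfa was lowest in control replicate 4, at 1986 against 2372 to 2467. These 5 fell on 5 different arrays.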

How the results depend on the processing

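The number of members past the threshold as higher, 2 as reported, was 1 without the signal filter, without the eBayes trend and with the replicate number as a block, 4 with a stricter filter and with median centring, 5 with array weights, and 0 after quantile normalization, with the 3'/5' covariate, with both together and in replicates 4 and 5 alone. Leaving out 1 array gave 1 to 5. No member passed as lower under any of the 23 alternatives. Pgk1 passed in 19 of the 23 (0.26 to 0.59, adjusted p from 0.00681 to 0.240) and Ldhb in 7 of the 23 (adjusted p from 0.0308 to 0.903). Ldhb turned to -0.013 after quantile normalization and to -0.047 with the covariate as well. Over all probe sets the 1371 past the threshold became 287 without the filter, 764 after quantile normalization, 243 without the trend, 2292 with array weights, 9 with the covariate, 5 with both covariate and quantile normalization, 198 in replicates 4 and 5 alone, and with 1 array left out from 125 (control replicate 2 removed) to 2481 (calorie-restricted replicate 5 removed). With the replicate number as a block 127 passed. Mice of the same number did not deviate together (r from -0.14 to -0.09). This cannot settle whether the numbers pair the mice, because opposite shifts also lower r. The 3'/5' ratio of replicates 4 and 5 was the highest in control and the lowest in calorie restriction. The median of the glycolytic enzymes, 0.19, was 0.055 after quantile normalization, 0.096 with the covariate, 0.074 in replicates 4 and 5 alone and 0.067 with covariate and quantile normalization, and 0.16 to 0.23 with 1 array left out. That of the other HIF targets, -0.07, was -0.18 in replicates 4 and 5 alone, -0.18 with covariate and quantile normalization and -0.21 when probe sets were averaged, and -0.18 (without control replicate 1) to -0.00011 with 1 array left out. That of the HIF subunits and regulators, -0.07, was 0.036 when probe sets were averaged and -0.10 to -0.04 with 1 array left out; that of the pyruvate and D-lactate enzymes was 0.081 to 0.25, the highest without control replicate 1. The log2 difference in the 3' to 5' ratio, 0.62, was 0.49 to 0.75 with 1 array left out (exact permutation p from 0.0397 to 0.0794), with p above 0.05 without control or calorie-restricted replicate 1, 2 or 3. The causes were not tested.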

Other observations

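Pdk4, the fasting-induced kinase of the family of Pdk1, Pdk2 and Pdk3, was chosen after its values were seen. It read 2072, 810.0, 1497, 1681 and 3678.5 in the controls and 709, 1203, 699.6, 1019 and 509.8 in calorie restriction, with 3 of 5 calorie-restricted mice below all controls. The log2 difference was -1.13 ± 0.32 (adjusted p = 0.0528 in limma), -1.09 after quantile normalization and -1.79 in replicates 4 and 5 alone. The feeding state of the mice at collection is not given in the sources used here.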
